A study of Homo sapiens with 4 samples.

Results

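The regions described here are the genomic neighbourhoods of the 3 FOXA genes, FOXA1, FOXA2 and FOXA3, in chromatin immunoprecipitation with sequencing (ChIP-seq) of FOXA2 in PC3, an established androgen-independent human prostate cancer cell line. A peak belonged to a locus when its summit lay in a fixed window of the hg19 build: chr14 from 37.86 to 38.26 Mb for FOXA1, chr20 from 22.36 to 22.77 Mb for FOXA2, and chr19 from 46.32 to 46.43 Mb for FOXA3. By this rule 32 peaks of 36154 were chosen, 19 of the 21308 in the vehicle list and 13 of the 14846 in the GSK2879552 list. They form 20 distinct sites, 9 at FOXA1, 11 at FOXA2 and none at FOXA3. The study compared cells given vehicle with cells given 50 µM GSK2879552, which inhibits LSD1 (KDM1A), an enzyme that removes methyl groups from histone H3, for 4 hours. Both groups were grown in medium with 5% charcoal-stripped serum. The treatment text of the vehicle samples also describes the GSK2879552 treatment; the groups were taken from the agent named for each sample, and what the vehicle was and how long it was given are not stated separately. Each group has 2 samples, described as technical replicates and titled as sequencing lanes, and both lanes are covered by 1 peak list. There is therefore no measure of spread between cultures, no test between the groups was possible. Intervals of fragment numbers and ratios cover counting error only, those of shares treat peaks as independent draws, and that of a median reflects the spread between sites; none covers spread between cultures. ATAC-seq is named in the sample descriptions and FOXA2 ChIP-seq in their titles and in the series; ChIP-seq was taken as the assay.

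The FOXA proteins are forkhead transcription factors known as pioneer factors, because their winged-helix DNA-binding domain can engage sites in compact chromatin. FOXA1 is the main family member of luminal prostate epithelium, where it works with the androgen receptor. FOXA2 is known for its roles in the early endoderm, the liver and the floor plate of the neural tube, and in prostate cancer for its expression in neuroendocrine tumours. FOXA3 is best known from liver and gut. FOXA proteins bind each other's genes and their own in several tissues, so the loci show where the immunoprecipitated factor sits around its own family. RNA was not measured here, so the peaks give binding sites and not the expression of any of the 3 genes.

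In the order of genes in RefSeq (GRCh38.p14), FOXA1 lies between the protein-coding genes MIPOL1 and TTC6. FOXA2 lies between PAX1, a paired-box factor of the developing skeleton, and SSTR4, a somatostatin receptor, with the long non-coding RNA genes LINC00261 and LNCNEF directly beside it. FOXA3 lies between SYMPK, a scaffold of messenger RNA 3′-end processing, and IRF2BP1. No hg19 annotation or genome sequence was used here, so distances from a peak to a gene start, and whether a peak is exonic, intronic or intergenic, are not given.

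The promoter sequences below are shown because the forkhead family recognises the core letters TGTTTAC or TGTTTGC, and because FOXA1 and FOXA3 differ in whether any FOXA2 peak lies in their window. Each is the 250 bases before the gene start in RefSeq, from GRCh38.p14, on the gene's own strand; capitals mark a match to either 7-letter form on either strand. FOXA1 is at chr14:37595250-37595499 on the minus strand and FOXA3 at chr19:45864076-45864325 on the plus strand, both in GRCh38.p14 and not in the hg19 coordinates used for peaks. The table matched 2 of the 3 genes, and FOXA2 was not among them.
FOXA1: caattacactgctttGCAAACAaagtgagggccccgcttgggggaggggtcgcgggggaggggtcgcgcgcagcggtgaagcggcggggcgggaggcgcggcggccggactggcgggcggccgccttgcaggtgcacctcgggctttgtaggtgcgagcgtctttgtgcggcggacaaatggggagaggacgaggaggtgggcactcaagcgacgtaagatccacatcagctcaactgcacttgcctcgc
FOXA3: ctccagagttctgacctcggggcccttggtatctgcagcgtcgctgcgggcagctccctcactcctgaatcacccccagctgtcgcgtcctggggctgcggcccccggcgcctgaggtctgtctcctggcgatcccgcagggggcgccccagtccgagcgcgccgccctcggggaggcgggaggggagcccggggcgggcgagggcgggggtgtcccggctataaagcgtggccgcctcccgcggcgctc
The FOXA1 promoter holds 1 match, GCAAACA, the reverse complement of TGTTTGC, whose last base lies 229 bases before the gene start, and the 250 bases of FOXA3 hold none. TGTTTAC or its reverse complement occurs in 2.98% and TGTTTGC or its reverse complement in 3.23% of 35116 promoters of this length, and 6.09% hold at least 1 of both. The shorter core TGTTT, contained in both forms, is present in 40.4% of promoters on either strand, occurs in FOXA1 within the same match, and does not occur in FOXA3. The 2 stretches contain 67.2% and 75.2% G and C, against a median of 58.0% (interquartile range 46.4 to 68.0) over all promoters. These are letters in a window and do not show a bound site. No peak was placed relative to either promoter, and whether the letters and the peaks of the loci are related was not tested.

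The 3 loci differed in how many FOXA2 peaks they held. In vehicle, 8 peaks were called in the 400 kb of FOXA1, 11 in the 410 kb of FOXA2 and 0 in the 110 kb of FOXA3. After GSK2879552 the numbers were 8, 5 and 0. Across the numbered chromosomes, X and Y, cut into consecutive stretches of the same length, 7.54% of 7477 stretches of 400 kb held at least 8 vehicle peaks (median 2) and 2.71% of 7293 stretches of 410 kb held at least 11 (median 2). An empty window such as that of FOXA3 was common, since 57.8% of 27215 stretches of 110 kb held no vehicle peak and 66.3% no GSK2879552 peak.

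**Figure D1:**
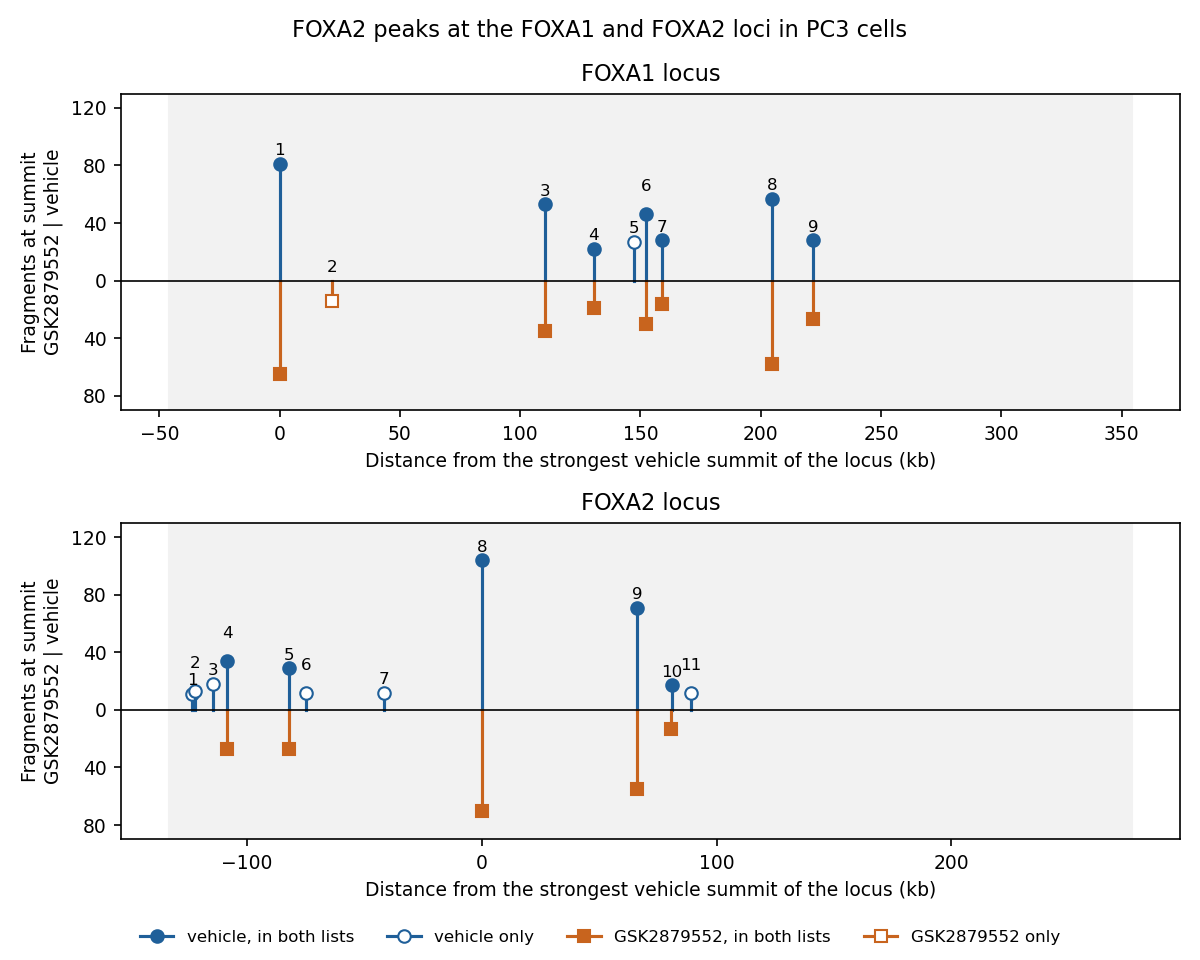
Fragments covering each summit (vertical axis; vehicle upward, GSK2879552 downward) against distance in kb from the strongest vehicle summit of the FOXA1 (top) and FOXA2 (bottom) locus; grey marks the window, numbers are the site numbers, and open symbols are sites called in 1 list alone. FOXA1 holds 1 open vehicle site and 1 open GSK2879552 site, FOXA2 holds 6 open vehicle sites, and the high-coordinate end of both windows is empty.

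The strength of a peak is given as the number of sequenced fragments covering its summit, which was computed from the deposited fold enrichment and −log10 p. The local background is the number of fragments that the peak caller took as the level without enrichment at that place. Sites are numbered along the chromosome within each locus. All folds and −log10 p values are the authors' peak-caller values, and ranks are by −log10 p within a list.

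At FOXA1, the gene of the luminal family member, site 1 (chr14:37905675-37906136) was the strongest in vehicle, with 81 fragments, a fold enrichment of 15.6 and rank 250 of 21308. In GSK2879552 it had 65 fragments and rank 222 of 14846. Site 8 (chr14:38110351-38110693) had 57 fragments in vehicle and 58 after the inhibitor. Among the 12 sites called in both lists it was the single one at which the number was not lower after GSK2879552, with a depth-scaled ratio of 1.02 (95% interval 0.692 to 1.49). Site 3 (chr14:38015979-38016442) had 53 fragments in vehicle and 35 in GSK2879552. These 3 sites were in the strongest of 10 equal bins of the vehicle list by −log10 p, where every peak overlapped a GSK2879552 peak.

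Sites 4 to 7 of FOXA1 lay close together, with neighbouring summits 16.6, 5.00 and 6.65 kb apart. Site 6 (chr14:38057901-38058186) was the strongest of this group, with 46 fragments in vehicle and 30 in GSK2879552 and summits at the same base in both lists. Site 7 (chr14:38064594-38064825) had 28 fragments in vehicle and 16 in GSK2879552. Its depth-scaled log2 ratio of GSK2879552 to vehicle, -0.81, was the lowest of both loci, but the interval from -1.79 to 0.13 includes equal numbers. Of all paired peaks, 9.05% had a lower ratio than site 7.

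Site 5 of FOXA1 (chr14:38052937-38053126), between these, was called in vehicle alone. There were 27 fragments at its summit, with a local background of 3.45, a fold of 6.30 and a narrow interval of 190 bp, and the nearest GSK2879552 summit, that of site 6, was 4999 bp away. Site 4 (chr14:38036265-38036546), with fewer fragments in vehicle (22), had 19 in GSK2879552 and so was called in both lists. Among the 8091 vehicle peaks with no GSK2879552 counterpart, 2.77% had 27 fragments or more, so site 5 had many fragments for a site of this class. Its background was also above the median of 1.68 of the vehicle list, but near the median of 3.26 of the FOXA1 vehicle peaks. The shared sites 1 and 6 had higher vehicle backgrounds, 4.25 and 3.75. The fold of site 5 was closer to the median of its class, 5.77. Site 9 (chr14:38127360-38127644) had 28 fragments in vehicle and 27 in GSK2879552, close to equal.

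Site 2 of FOXA1 (chr14:37927674-37927846) was called after GSK2879552 alone. It had 14 fragments over a local background of 1.81 and a fold of 5.33, and the nearest vehicle summit was 21871 bp away. Of 1602 peaks found only in the GSK2879552 list, 36.5% had 14 fragments or more. It was a weak peak, at rank 11597 of 14846. The equal peak numbers at FOXA1, 8 and 8, thus comprise 7 sites in both lists, 1 in vehicle alone and 1 in GSK2879552 alone.

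At FOXA2, the gene of the immunoprecipitated factor itself, site 8 (chr20:22493003-22493402) was the strongest of all 3 loci. It had 104 fragments in vehicle, with a fold of 19.3, a −log10 p of 102 and rank 62 of 21308, which is within the strongest 0.291% of the list. In GSK2879552 it had 70 fragments and rank 127 of 14846, and was still the strongest of the members. The depth-scaled ratio was 0.672 (95% interval 0.489 to 0.918). It was the 1 pair of 12 whose interval lay below equal numbers, a share of 8.33% against 8.24% of all 13200 pairs. The summits of the 2 lists were 2 bp apart, so the position of the strongest site was the same in both.

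Site 9 of FOXA2 (chr20:22559214-22559645) followed, with 71 fragments in vehicle and 55 in GSK2879552. Site 4 (chr20:22384569-22384916) had 34 in vehicle and 27 in GSK2879552, and site 5 (chr20:22410716-22410973) had 29 and 27. In the whole list, 98.5% of vehicle peaks in the strength bin of site 4 and 92.5% in that of site 5 overlapped a GSK2879552 peak, and these 2 sites did so too.

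Site 10 of FOXA2 (chr20:22573978-22574398) was a weaker shared site, with 17 fragments in vehicle and 13 in GSK2879552. Its intervals overlapped by 243 bp, but the summits were 170 bp apart, whereas those of the other 11 pairs of both loci were 0 to 48 bp apart. Over all pairs 4.28% had summits over 100 bp apart, against 1 of 12 here. Requiring summits within 100 bp would remove this site from the shared set and leave 4 of 11 at FOXA2.

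The remaining 6 vehicle sites of FOXA2 had no GSK2879552 counterpart, and none exceeded the median of 18 fragments of the vehicle list. Sites 1 (chr20:22369556-22369743), 2 (chr20:22370930-22371104) and 3 (chr20:22378510-22378753) had 11, 13 and 18 fragments. They stood at the low-coordinate end of the window, with summits 1.37, 7.57 and 6.10 kb apart along the way to the shared site 4. Sites 6 (chr20:22418188-22418362), 7 (chr20:22451174-22451448) and 11 (chr20:22582075-22582264) had 12 fragments each. The fold enrichments of these 6 sites ran from 4.08 at site 1 to 6.78 at site 3. The nearest GSK2879552 summit was 6114 bp away for site 3, 7366 bp for site 6, 8192 bp for site 11, 12912 bp for site 1, 13686 bp for site 2 and 40471 bp for site 7. The smallest number of fragments called anywhere was 7 in both lists, so a site missing from the GSK2879552 list is one where no peak was called and not one shown to be empty.

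**Figure D2:**
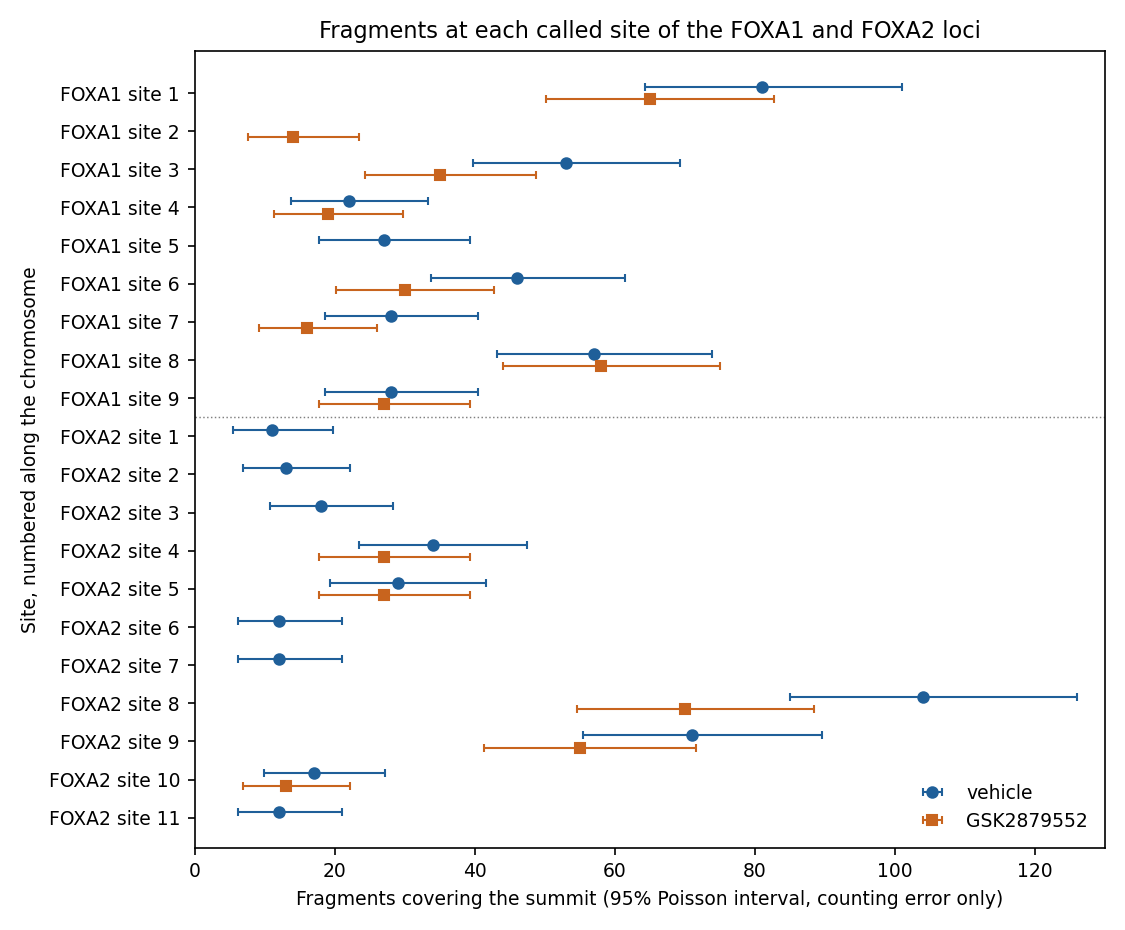
Fragments covering the summit at each of the 20 sites (horizontal axis) in vehicle (circles) and GSK2879552 (squares), with 95% Poisson intervals for counting error. The intervals of the 2 lists overlap at each of the 12 shared sites, and a missing symbol means that no peak was called in that list.

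FOXA3 had no peak in either list. The nearest vehicle summits were 621 kb below and 347 kb above its window, a stretch of 1.08 Mb without a vehicle peak. The nearest GSK2879552 summits were 1020 kb below and 347 kb above. The upper neighbour was the same place in both lists, at chr19:46777194-46777523 in vehicle with 39 fragments and at chr19:46777191-46777498 in GSK2879552 with 41. Of 21090 distances between neighbouring vehicle summits, 1.34% were as long as this stretch or longer, and the median was 56.0 kb. This share counts stretches and not bases. Long stretches cover more bases each, so a given place lies in so long a stretch more often than this share. The lists hold called peaks only, so binding at FOXA3 below the calling threshold was not detectable here.

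A second long stretch began at the FOXA2 locus. From site 11 of FOXA2 the next vehicle summit lay 2.62 Mb further up chromosome 20, the distance of rank 51 from the longest among the 21090. The last 0.188 Mb of the FOXA2 window therefore held no peak, and all 11 sites lay within 212 kb at its low-coordinate side. At FOXA1 the 8 vehicle summits spanned 222 kb. Just outside the windows, the nearest vehicle peaks were 3.17 kb below FOXA2 (51 fragments, shared with GSK2879552), 13.7 kb below FOXA1 (15 fragments, vehicle alone) and 34.5 kb above FOXA1 (32 fragments, shared).

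Across both loci, 12 of 19 vehicle peaks (63.2%, exact 95% interval 38.4 to 83.7) overlapped a GSK2879552 peak, against 62% of the whole vehicle list. Of the 13 GSK2879552 peaks, 12 (92.3%, 64.0 to 99.8) overlapped a vehicle peak, against 89.2% of that list. The shares of the members were thus near those of all peaks. By locus, 7 of 8 vehicle peaks (87.5%, 47.3 to 99.7) were overlapped at FOXA1 and 5 of 11 (45.5%, 16.7 to 76.6) at FOXA2. These intervals overlap, and the difference between the loci was not tested. Its direction turned only when both lists were cut at the strict −log10 q limit of 10, which left few peaks. The shares were then 62.5% of 8 vehicle peaks at FOXA1 (24.5 to 91.5) and 100% of 4 at FOXA2 (39.8 to 100). These intervals overlap too. FOXA1 kept the higher share in every other alternative run. It had 75% against 50% under a limit of 5, whether on −log10 q or on fold. With summits within 100 bp the shares were 87.5% and 36.4%. Shorter windows gave 85.7% and 57.1%, and longer ones 84.6% and 60%.

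The vehicle peaks of the loci differed in strength. At FOXA1 they had 22 to 81 fragments with a median of 37, and at FOXA2 11 to 104 with a median of 17. The median was 18 over the whole list, 23 over chromosome 14 and 20 over chromosome 20. In the same 10 bins, numbered from the weakest, the FOXA1 sites fell in bins 6 to 10, whereas 5 of the 11 FOXA2 sites fell in bins 1 and 2. In the whole list 19.6% of bin 1 and 26.7% of bin 2 overlapped a GSK2879552 peak, and none of these 5 did. In bin 5 site 3 of FOXA2 was in vehicle alone and site 10 was shared, where the whole list had 53.9%. In bin 6 FOXA1 site 5 was in vehicle alone and site 4 was shared, where the whole list had 68.4%. All 9 members of bins 8 to 10 and the 1 of bin 7 were shared. Bin 10 of the vehicle list held 5 of the 19 vehicle members, a share of 26.3% (9.15 to 51.2), against 10% by definition, and that of the GSK2879552 list held 4 of 13.

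**Figure D3:**
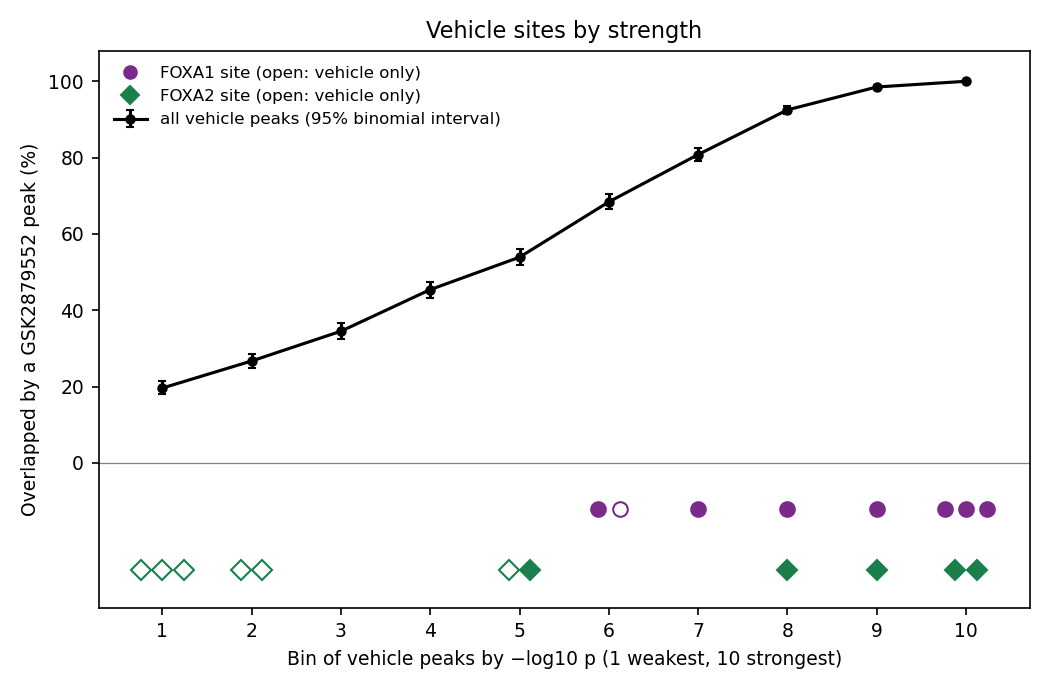
Share of vehicle peaks overlapped by a GSK2879552 peak (vertical axis, %, with exact 95% binomial intervals) in 10 bins of vehicle −log10 p (horizontal axis), with the FOXA1 and FOXA2 sites placed below by bin; open symbols are in vehicle alone. All 7 vehicle-only sites lie in bins 1, 2, 5 and 6.

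The contrast in peak numbers between the loci depended on how strict the calling threshold was. At a −log10 q of at least 5, FOXA1 had 8 vehicle and 7 GSK2879552 peaks and FOXA2 had 8 and 4. The numbers were the same at a fold of at least 5, so the contrast kept its direction at both limits. With both lists held to a −log10 q of at least 10, FOXA1 had 8 vehicle and 5 GSK2879552 peaks and FOXA2 had 4 and 4. Vehicle peaks at FOXA2 sites 1, 2, 3, 6, 7, 10 and 11 and GSK2879552 peaks at FOXA1 sites 2, 4 and 7 and FOXA2 site 10 fall under this limit. Stretches of 400 kb with exactly 8 vehicle peaks held a median of 6 GSK2879552 peaks (interquartile range 5 to 7), and stretches of 410 kb with exactly 11 held a median of 7 (6 to 8), against 8 at FOXA1 and 5 at FOXA2. Of the 186 stretches with 8 vehicle peaks, 7.53% held 8 or more GSK2879552 peaks. Of the 55 stretches with 11, 16.4% held 5 or fewer.

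Fragment numbers were lower after GSK2879552 at 11 of the 12 shared sites. Over all 13200 pairs the share was 78% as counted and 83.7% depth-scaled. The depth-scaled share also counts the 748 pairs with equal numbers as lower. At 3 of 12 the depth-scaled number was at least 1.5-fold lower, namely FOXA1 sites 3, 6 and 7, against 24.9% of all pairs. The median log2 ratio of GSK2879552 to vehicle was -0.35 (95% interval of the median -0.60 to -0.11) over the 12 pairs, against -0.32 over 13200. It was -0.32 over the 7 pairs of FOXA1, with a range from -0.81 to 0.02, and -0.37 over the 5 pairs of FOXA2, with a range from -0.57 to -0.11. Summed over pairs, 315 vehicle and 250 GSK2879552 fragments at FOXA1 gave a depth-scaled ratio of 0.792 (0.668 to 0.938). At FOXA2, 255 and 192 gave 0.751 (0.62 to 0.91), and the sum over all pairs of the series gave 0.798. At sites called in both lists, the decrease at the FOXA loci was therefore close in size to that of all pairs. Sites called in 1 list alone have no ratio and are left out. In vehicle these were 1 of 8 sites at FOXA1 and 6 of 11 at FOXA2.

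**Figure D4:**
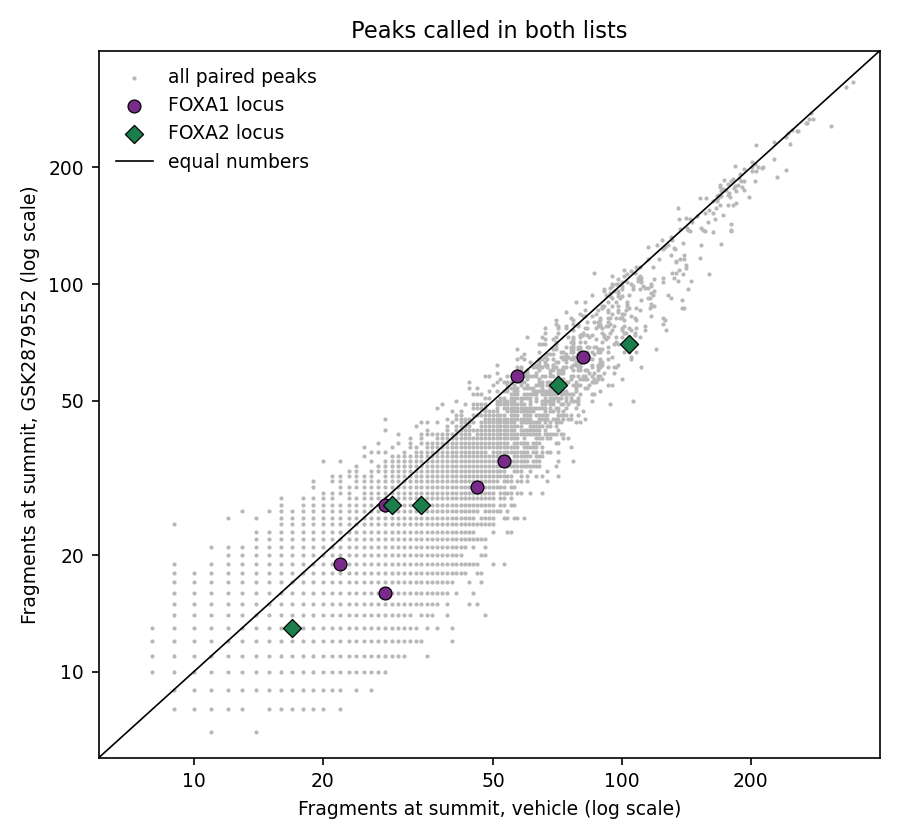
Fragments at the summit in GSK2879552 (vertical axis, log scale) against vehicle (horizontal axis, log scale) for all paired peaks (grey), FOXA1 sites (circles) and FOXA2 sites (diamonds); the line marks equal numbers. Of the 12 marked pairs, 11 lie below the line, within the spread of all pairs.

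The 4 strongest members were the same sites in both lists, while weaker shared sites changed places. Ranked by −log10 p, the 4 strongest members in vehicle were FOXA2 site 8, FOXA1 site 1, FOXA2 site 9 and FOXA1 site 8. In GSK2879552 the same 4 led, with FOXA1 site 8 ahead of FOXA2 site 9, at −log10 p values of 64.0, 56.6, 50.0 and 47.9. Vehicle intervals were the wider in 9 of 12 pairs, a share equal to the 75% of all pairs. FOXA1 site 8 and FOXA2 sites 5 and 8 were wider after GSK2879552, at 358, 335 and 431 bp against 343, 258 and 400 bp. FOXA1 sites 4 and 7 were narrower, at 190 and 168 bp against 282 and 232 bp in vehicle. The median width of the vehicle members was 282 bp, against 258 bp over the list.

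Local backgrounds were higher at FOXA1 than over the whole list. They ran from 2.47 to 4.25 fragments in vehicle, with a median of 3.26, against 1.68 over the list and 2.64 over all vehicle peaks of chromosome 14. At FOXA2 they ran from 1.36 to 4.43 with a median of 1.94, against 2.06 over chromosome 20. In GSK2879552 the order against the chromosomes was the other way, with medians of 2.73 at FOXA1 against 2.79 over chromosome 14 and 2.23 at FOXA2 against 2.15 over chromosome 20. The 2 lists hold different sites, so these medians do not show a change at the same places. At the 5 FOXA2 sites in both lists the vehicle backgrounds were 2.63, 2.03, 4.43, 3.27 and 1.72. Among pairs, the background was higher in vehicle at 5 of 7 at FOXA1, 3 of 5 at FOXA2 and 8291 of 13200 over the whole series. A higher background asks for more fragments before a peak is called. At FOXA2 the highest vehicle backgrounds, 4.43 and 3.27, were those of the strongest sites, with 104 and 71 fragments. At FOXA1 the order was less regular, with 3.45 at site 5 (27 fragments) and 3.20 at site 8 (57 fragments). Whether a control library set the backgrounds is not stated. Whether background and peak strength are related at these loci, and in which direction, was not tested.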

How the data were processed

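FOXA2 ChIP-seq of PC3 cells was analysed from 2 deposited peak lists, 1 per group, each covering 2 lanes. The submitters' processing notes name the hg19 build with the aligner BWA (0.7.2), SAMtools (0.1.18) and the peak caller MACS2 (2.1.2). Not given in the sources used here: options, threshold, whether duplicates were removed, and whether a control was used. The fold of a peak, deposited by the authors, is the ratio of summit fragments plus 1 to local background plus 1. The deposited −log10 p is the Poisson tail against that background, and the score deposited by the authors, divided by 10, served as the −log10 q.

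Fragment numbers were recovered as the whole number below 1500 whose Poisson tail equals the deposited p; 100% of peaks matched within 0.001 in −log10 p (3 vehicle and 7 GSK2879552 peaks had more than 1 match, and the better was used). The lowest background, 1.079 fragments in vehicle and 1.082 in GSK2879552, scaled ratios for depth. Divided by the shortest intervals, 175 and 168 bp, it gives 6.17 and 6.44 reads per kb if no control library was used. Peaks were shared when intervals overlapped by at least 1 bp, and pairs are mutual best partners. Shares carry exact (Clopper-Pearson) 95% intervals, and ratios exact conditional binomial intervals. A median's interval comes from order statistics. Scripts (Python 3.11.15, SciPy 1.17.1) were tested on simulated data. The windows, peaks and lists were chosen with earlier results of these data known. Every site in the windows is named, so that the planned subset (the 10 strongest and those in 1 list alone) is included. Peaks at other forkhead genes, motifs under peaks and distances to gene starts were planned and not run, since no hg19 annotation or sequence was used. Alternatives comprised stricter thresholds, other overlap rules, other windows and other fragment measures.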

Additional observations from a re-analysis of the deposited data

How the results depend on the processing

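The fragment decrease at shared sites did not turn direction under any alternative run for it: the median log2 ratio was -0.37 to -0.33 with fragments above the local background, with summits within 100 bp, in windows 100 kb longer on each side and at a −log10 q of at least 5 or 10. Omitting the depth scaling gave -0.35, but the floors of 1.079 and 1.082 are so close that this could hardly move it. All these alternatives reuse summit counts of the same 2 lists, and only the longer windows add pairs. With 11 of the 12 pairs lower, the sign of the median could hardly turn, so its constancy is weak evidence. Of 90 recomputed counts, shares and medians 81 stayed within their interval or within 1.5 times the count, as did 24 single-site ratios, and 9 moved. This is a weak criterion. Intervals of shares were wide, such as 16.7 to 76.6 for vehicle peaks at FOXA2, and the 0 peaks at FOXA3 count as unchanged. The single-site ratios were recomputed only without depth scaling or above the local background, and could hardly leave their intervals. At a −log10 q of at least 10, FOXA1 had 5 GSK2879552 peaks and FOXA2 4 vehicle peaks. Then 100% of vehicle peaks at FOXA2 and 100% of GSK2879552 peaks, at FOXA1 and over both loci, were overlapped. The vehicle share at FOXA1 was 62.5%, against 87.5% without the limit. This limit removes weak peaks from both lists by construction. The GSK2879552 peaks of FOXA1 sites 4 and 7 fell out, while the vehicle peaks of these sites stayed. Windows 50 kb shorter on each side (20 kb for FOXA3) left 7 vehicle peaks at FOXA2. Windows 100 kb longer gave 13 vehicle and 13 GSK2879552 peaks at FOXA1 and 9 GSK2879552 peaks at FOXA2 (15 in vehicle), and still 0 at FOXA3. Lanes could not be left out, as the lists combine them. No paired analysis was possible because the lanes of a group share 1 list. The effect of depth (6.17 and 6.44 reads per kb if no control library was used) on the calling of weak sites was not tested.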
